A study of Mus musculus with 6 samples.

Results

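The genes described here encode proteins with which myoblasts recognise each other, adhere and fuse. They are 10 listed genes, of which 9 were found by exact symbol among the 56792 gene rows of the count table: Mymk, Mymx, Cdon, Boc, Jam2, Jam3, Cav3, Myof and Il4ra. Cdh15, which encodes M-cadherin, was not analysed here. The cells were C2C12, an established mouse myoblast line labelled as wild type, grown in DMEM with 10% fetal calf serum and kept for differentiation in DMEM with 2% horse serum. RNA was sequenced after 4 days of differentiation from 3 libraries of cells without lenvatinib (untreated) and 3 libraries of cells given 1 µM lenvatinib, an inhibitor of the vascular endothelial growth factor and fibroblast growth factor receptor kinases and of further receptor tyrosine kinases. Both groups were therefore differentiating, and the labels name neither a solvent control nor the time at which the drug was added. All libraries come from 1 cell line and the labels do not say whether they were separate cultures, so the tests see the spread among these 6 libraries alone, and that spread may be technical.

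Fusion of myoblasts builds the multinucleated muscle fibre. Cells that have left the cell cycle first recognise each other through cadherins and immunoglobulin-type surface proteins, then remodel the actin cortex at the contact, and finally merge their membranes. Mymk (myomaker), a protein with several membrane passes, and Mymx (also called myomixer, myomerger or minion), a very small membrane protein, are the muscle fusogens: Mymk acts in the mixing of the outer membrane leaflets and Mymx in the opening of the fusion pore.

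Library totals were 24566768 to 32406563 counts, so that 1 count corresponded to 0.0309 to 0.0409 CPM. CPM is a gene's count per 1000000 counts of its library, after correction of the library total with TMM factors of 0.9956 to 1.0074. Replicates of a group differed by more than counting noise (chi-square per degree of freedom 2.78 to 5.6), so none was a copy of another. The reads carry no molecular identifiers, so limits derived from counts cover counting error only. Genes that define differentiating muscle cells were abundant: the differentiation factor gene Myog stood at 856 ± 10.2 CPM untreated and 1036 ± 14.1 CPM with lenvatinib (SD, n = 3), and the embryonic myosin gene Myh3 at 5973 ± 138 and 6386 ± 71.8 CPM (SD, n = 3).

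Among the 9 genes, 5 rose with lenvatinib (Mymk, Cdon, Boc, Jam2 and Jam3), 3 fell (Cav3, Myof and Il4ra), and Mymx did not pass the test. The changes were modest, from 1.13-fold to 1.48-fold among the genes that rose and from 1.12-fold to 1.42-fold lower among those that fell. The test was edgeR's quasi-likelihood test on the counts with Benjamini-Hochberg adjustment over 14989 rows, called at an adjusted p under 0.05; each fold change divides the lenvatinib by the untreated level and is given as log2 with the standard error (SE) of that fit. Of all rows tested 28.2% were called (13.3% higher and 14.9% lower), and of the 8820 rows at least as abundant as Boc, the least abundant of the 9, 34.6% were called. In 8 of the 9 genes the groups did not overlap in CPM, which held in 40.1% of all rows tested. All 9 genes passed the filter on low counts. Their median log2 fold change was 0.17 and their median absolute log2 fold change 0.30, beside 0.00 and 0.12 over all rows tested (0.0027 and 0.1154 before rounding).

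**Figure D1:**
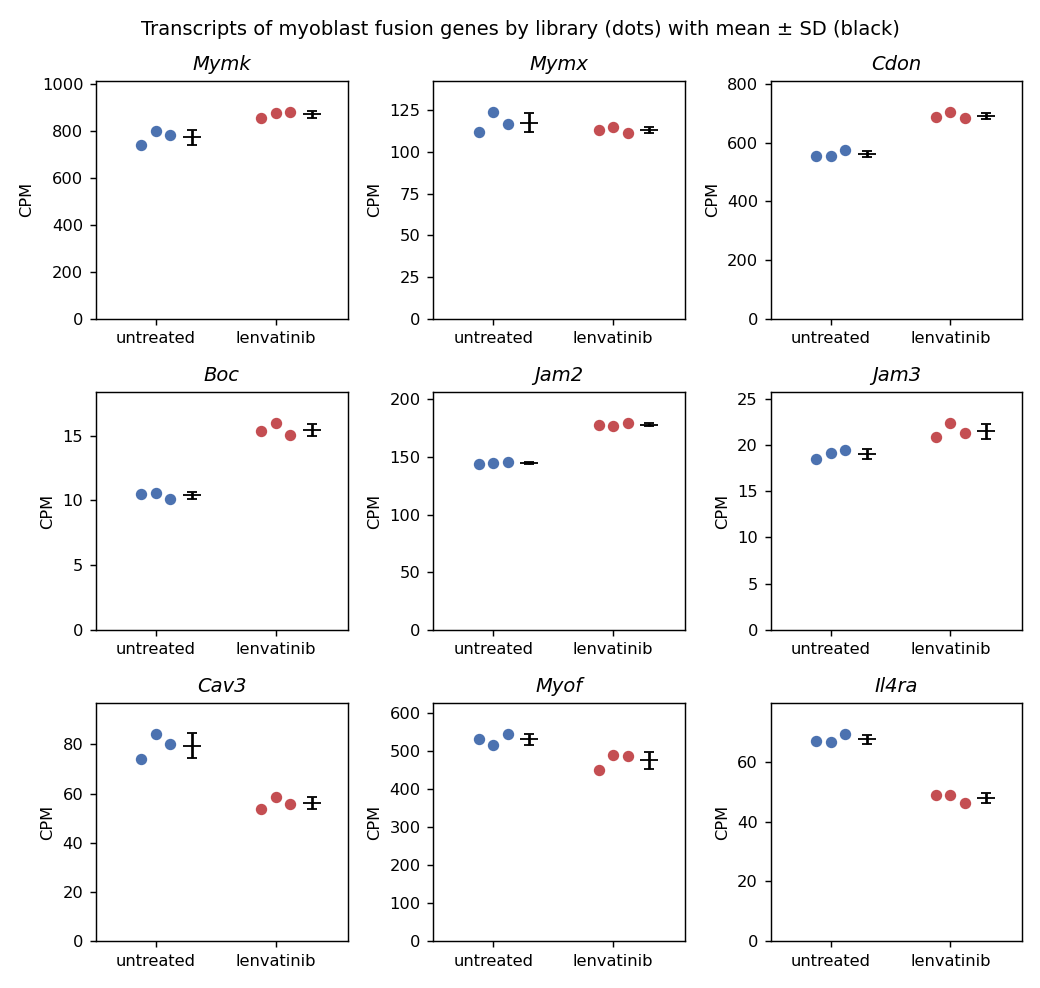
CPM (vertical axis, starting at 0) of each of the 9 fusion genes in the 3 untreated libraries (blue dots) and the 3 lenvatinib libraries (red dots), with mean ± SD in black. In every panel but that of Mymx the red and blue dots lie at separate heights.

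Promoter sequences are shown for the 3 genes that fell, which shared a direction of change but not its size. Each has a RefSeq promoter entry at or near the start of the gene in GENCODE M21. Entries of RefSeq for the build GRCm38.p6 span 250 bases before to 50 bases after a gene's start, and 5 of the 10 listed genes had one. The RefSeq start is that of GENCODE M21 for Cav3 and Myof and lies 151 bases downstream of it for Il4ra. The window of Cdon lies 30.9 kb from the GENCODE M21 start of that gene, inside the gene, and is not printed. Each sequence below runs 5′ to 3′ along the gene, and the capitals mark E-boxes (CANNTG), the sequence that Myod1 and Myog proteins bind in general.
Cav3 (chr6:112459255-112459554, + strand): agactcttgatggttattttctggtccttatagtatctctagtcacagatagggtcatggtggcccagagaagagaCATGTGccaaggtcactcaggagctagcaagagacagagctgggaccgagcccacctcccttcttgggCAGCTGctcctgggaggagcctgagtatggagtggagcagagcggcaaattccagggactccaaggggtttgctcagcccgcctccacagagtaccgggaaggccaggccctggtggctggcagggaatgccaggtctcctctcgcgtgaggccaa
Il4ra (chr7:125552021-125552320, + strand): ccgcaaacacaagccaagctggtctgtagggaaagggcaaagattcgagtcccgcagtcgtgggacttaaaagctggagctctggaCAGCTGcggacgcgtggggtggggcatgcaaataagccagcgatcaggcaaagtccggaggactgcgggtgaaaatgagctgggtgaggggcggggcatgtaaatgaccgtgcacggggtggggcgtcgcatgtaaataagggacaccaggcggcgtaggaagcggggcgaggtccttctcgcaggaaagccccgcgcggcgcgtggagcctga
Myof (chr19:38043528-38043827, - strand): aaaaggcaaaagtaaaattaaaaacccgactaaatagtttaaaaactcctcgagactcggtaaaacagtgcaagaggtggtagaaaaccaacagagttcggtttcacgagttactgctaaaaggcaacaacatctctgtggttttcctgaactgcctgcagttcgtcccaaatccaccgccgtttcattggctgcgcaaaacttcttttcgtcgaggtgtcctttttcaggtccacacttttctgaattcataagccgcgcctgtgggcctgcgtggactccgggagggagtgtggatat
The windows of Cav3 and Il4ra each hold 1 copy of the E-box CAGCTG, beginning 106 and 164 bases before the RefSeq start of the gene (for Il4ra, 13 bases before the GENCODE M21 start), and that of Cav3 holds a further E-box, CATGTG, 174 bases before it. The window of Myof holds no E-box. Of 32851 promoter entries of the same length 72.3% hold a CANNTG and 16.3% a CAGCTG, so these matches describe the windows and name no bound site. In total 13 motifs were searched on both strands: CANNTG and, overlapping with it, CAGCTG and CACCTG; the TEAD motif CATTCC, the TATA box TATAAA, the GC box GGGCGG, the AP-1 site TGANTCA, the SMAD motif CAGAC, the ETS motif CCGGAAGT, the STAT site TTCNNNGAA, the STAT6 site (TTC and GAA with 4 bases between them), the MEF2 site and the CArG box. Besides the E-boxes, the window of Cav3 holds 1 TEAD motif (found in 14.7% of all entries), and that of Il4ra holds 1 GC box (35.7%) and 1 SMAD motif (49.6%). None of the 13 was found in all 3 windows, and the window of Myof held none of them. The motifs were chosen after the changes of these genes were known.

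The fusogen transcripts did not move together. Mymk, on chromosome 2 from 26951648 to 26962191 in the deposited table, was at 738, 798 and 783 CPM in the untreated libraries and at 854, 878 and 880.1 CPM in the lenvatinib libraries. Every lenvatinib library lay above every untreated one, and Mymk rose by a log2 fold change of 0.17 ± 0.03 (SE; edgeR adjusted p = 3.56e-06), or 12.6%. Mymx, on chromosome 17 from 45911897 to 45913028, was at 112, 124 and 117 CPM untreated and at 113, 115 and 111 CPM with lenvatinib. The groups overlapped, the log2 fold change was -0.06 (95% interval -0.13 to 0.01), and the edgeR adjusted p was 0.255. That interval reaches from a ratio of 0.916 to one of 1.01, so a rise of Mymx as large as the 1.13-fold of Mymk lies outside it.

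Within each library the count ratio of Mymk to Mymx needs no scaling between libraries. Its log2 value was 2.72, 2.69 and 2.75 in the untreated libraries and 2.92, 2.93 and 2.98 with lenvatinib. The ratio was thus 1.17 times higher with lenvatinib (difference 0.23 on the log2 scale), and the groups did not overlap. An exact two-sided permutation test gave p = 0.1, the smallest that 3 libraries against 3 allow, and 0.1 after adjustment over the 3 ratios of this kind that were tested, so this design cannot place the difference past a threshold of 0.05.

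Cdon and Boc encode a pair of related immunoglobulin-type surface proteins that bind each other and cadherins, promote muscle differentiation from cell contacts, and also serve as co-receptors of Hedgehog ligands. Cdon, on chromosome 9 from 35332424 to 35418948, was at 555, 554 and 574 CPM untreated and at 687, 705 and 685 CPM with lenvatinib. The groups were well apart, and Cdon rose 1.23-fold (log2 0.30 ± 0.03 SE, edgeR adjusted p = 2.19e-12). Boc, on chromosome 16 from 44305412 to 44379260, was at 10.5, 10.6 and 10.1 CPM untreated and at 15.3, 15.96 and 15.02 CPM with lenvatinib. It had the largest change of the 9 genes, a 1.48-fold rise (log2 0.57 ± 0.08 SE, edgeR adjusted p = 2.32e-07) with no overlap, and 8.35% of all rows tested changed by more in either direction. Boc rested on few reads, 270 to 290 counts untreated and 379 to 486 with lenvatinib. The log2 ratio of Cdon to Boc was 5.76 ± 0.07 untreated and 5.49 ± 0.02 with lenvatinib (SD, n = 3; exact two-sided permutation p = 0.1, the smallest possible). It was lower in every lenvatinib library than in every untreated one.

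Jam2 and Jam3 encode junctional adhesion molecules that bind each other across cell contacts. Jam2, on chromosome 16 from 84571011 to 84622816, was at 144, 145 and 146 CPM untreated and at 178, 177 and 179 CPM with lenvatinib. The replicates were nearly equal within each group, and Jam2 rose 1.23-fold (log2 0.30 ± 0.03 SE, edgeR adjusted p = 6.4e-11). Jam3, on chromosome 9 from 27008680 to 27066717, was at 18.5, 19.1 and 19.4 CPM untreated and at 20.8, 22.3 and 21.3 CPM with lenvatinib. The groups did not overlap, but the rise of 1.13-fold was close to the threshold (log2 0.17 ± 0.06 SE, edgeR adjusted p = 0.0368). The call was lost without each single library other than the first lenvatinib one (adjusted p = 0.05 to 0.144), with no filter on low counts (0.051) and with DESeq2 (0.111), so the rise of Jam3 is the least secure of the 8. The log2 ratio of Jam2 to Jam3 was 2.93 ± 0.03 untreated and 3.05 ± 0.06 with lenvatinib (SD, n = 3; exact two-sided permutation p = 0.1, the smallest possible), without overlap.

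Cav3 and Myof encode membrane proteins of muscle cells. Caveolin 3, the muscle form of the protein that coats the membrane pits called caveolae, is made as myotubes form. Cav3, on chromosome 6 from 112436466 to 112449833, was at 74.3, 84.1 and 80.2 CPM untreated and at 53.9, 58.6 and 55.7 CPM with lenvatinib. All lenvatinib libraries lay below all untreated ones, and Cav3 fell 1.42-fold (log2 -0.50 ± 0.04 SE, edgeR adjusted p = 6.21e-12). Myof encodes myoferlin, a calcium-binding ferlin that takes part in membrane merging and vesicle traffic. On chromosome 19 from 37887484 to 38032025, it was at 532, 515 and 544 CPM untreated and at 449.9, 488 and 488 CPM with lenvatinib. It fell by 10.4% (log2 -0.16 ± 0.03 SE, edgeR adjusted p = 8.18e-05). The 95% intervals of the log2 fold changes of Myof (-0.22 to -0.10) and Cav3 (-0.59 to -0.42) did not overlap.

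Il4ra encodes the ligand-binding chain of the interleukin 4 receptor; interleukin 4 from young myotubes draws in further myoblasts for fusion. Il4ra, on chromosome 7 from 125151292 to 125178646, was at 67.01, 66.5 and 69.3 CPM untreated and at 49.05, 48.9 and 46.1 CPM with lenvatinib. The groups were far apart relative to their spread, and Il4ra fell 1.41-fold (log2 -0.50 ± 0.04 SE, edgeR adjusted p = 7.31e-13). Changes larger than those of Cav3 and Il4ra were seen in 10.1% and 10.3% of all rows tested. In bulk RNA, fewer cells that express a gene and less RNA per cell cannot be told apart, which holds for each value here.

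**Figure D2:**
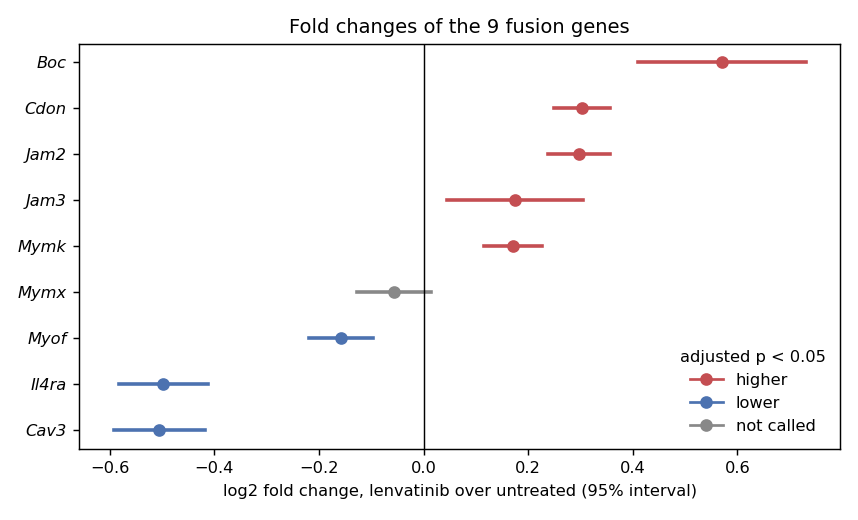
Log2 fold change of each gene, lenvatinib over untreated (horizontal axis), as a dot with its 95% interval from the edgeR fit; red marks genes called higher, blue genes called lower and grey the gene that was not called. Boc lies farthest to the right at 0.57, Cav3 and Il4ra farthest to the left at -0.50, and only the interval of Mymx crosses 0.

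Levels of different genes were compared as TPM, computed here by dividing counts by the deposited feature lengths and scaling each library to the same sum. Mymk was the most abundant of the 9 in both groups, at 1708 ± 56.2 TPM untreated and 1912 ± 30.0 TPM with lenvatinib (SD, n = 3). Mymx followed at 382 ± 16.2 and 366 ± 9.71 TPM, and Cdon at 188 ± 3.93 and 231 ± 5.69 TPM. Next in the untreated libraries came Cav3 (149 ± 8.13 TPM) and Myof (139.6 ± 4.47 TPM), whose ranges overlapped. With lenvatinib this order was turned and the ranges were apart, with Myof at 124 ± 5.45 and Cav3 at 104.5 ± 4.83 TPM. Below them lay Jam2 (67.3 ± 0.363 and 82.3 ± 0.41 TPM), Il4ra (37.6 ± 0.882 and 26.5 ± 1.20 TPM), Jam3 (19.7 ± 0.415 and 22.1 ± 0.934 TPM) and Boc (7.75 ± 0.203 and 11.4 ± 0.466 TPM). The other neighbours in this order did not overlap in either group. Il4ra and Jam3 came closer to each other with lenvatinib, their TPM ranges being 36.7 to 38.5 and 19.3 to 20.1 untreated and 25.2 to 27.2 and 21.5 to 23.2 with lenvatinib.

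**Figure D3:**
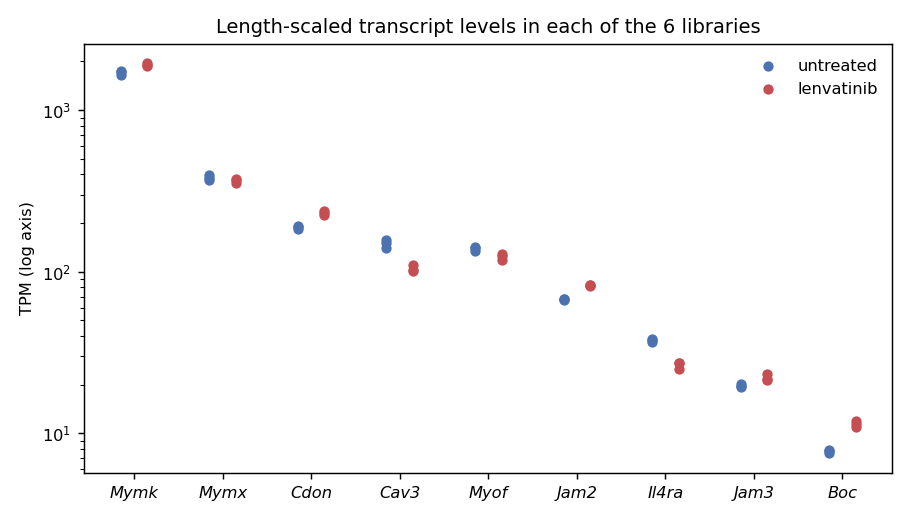
TPM on a log axis of the 9 genes in each of the 6 libraries, untreated in blue and lenvatinib in red, ordered by the untreated mean. The group means span from 7.75 TPM for Boc untreated to 1912 TPM for Mymk with lenvatinib, and those of Cav3 and Myof change places between the groups.

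The 3 rows most like Mymk over the 6 libraries, by Pearson r of log2 CPM, were the slow troponin C gene Tnnc1 (r = 0.997), the signal peptidase gene Sec11a (0.996) and Arl10 (0.996). These r values describe 6 points that share the split by treatment, and 694 rows had an r above 0.9.

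The partners of these proteins formed 7 further lists, shown in the plot of partner genes. The counts of each list stand beside 28.2% of all rows called (13.3% higher and 14.9% lower). No list was tested as a set. Of 6 tested cadherin and catenin genes 1 rose and 4 fell (median log2 fold change -0.13). Cdh11, a cadherin of mesenchymal cells, fell from 107 ± 2.88 to 80.7 ± 3.71 CPM (log2 -0.41, edgeR adjusted p = 5.87e-12), and the catenin genes Jup and Ctnna1, whose products tie cadherins to the cytoskeleton, fell by 0.14 and 0.12 on the log2 scale. The gene that rose, Cdh2, was close to the threshold (log2 0.07, edgeR adjusted p = 0.0461, named after its value was seen). With any single library left out, 3 or 4 genes of this list were called rather than 5. The count was 3 without the first untreated or the first lenvatinib library. Of 8 tested partners of the junctional adhesion molecules 2 rose and 2 fell (median 0.07). Itga4, an integrin subunit that binds Vcam1 and fibronectin, fell from 46.8 ± 5.07 to 26.4 ± 1.18 CPM (log2 -0.82, edgeR adjusted p = 6.33e-10), and the tight junction scaffold gene Tjp1 fell by 0.14.

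Of 13 tested genes of the Hedgehog pathway and of Cdon and Boc signaling, 1 rose, 2 fell and 10 did not pass (median 0.03). This is near the 28.2% of all rows called. While Cdon and Boc rose, Gas1, the third co-receptor of Hedgehog ligands, fell from 159.8 ± 3.05 to 109 ± 3.06 CPM (log2 -0.55 ± 0.03 SE, edgeR adjusted p = 1.3e-17), and Neo1, encoding the Cdon-binding receptor neogenin, fell by 0.26. Mapk14, which encodes the p38 alpha kinase through which Cdon promotes differentiation, rose from 60.8 ± 0.991 to 76.8 ± 3.25 CPM (log2 0.34, edgeR adjusted p = 4.32e-09). The Hedgehog target genes Ptch1 (11.8 ± 1.06 and 12.3 ± 0.647 CPM) and Gli1 (0.633 ± 0.0974 and 0.535 ± 0.114 CPM) did not pass the test (edgeR adjusted p = 0.665 and 0.684); they are named after their values were seen.

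Of 19 tested genes of the actin and Rac machinery that works at the fusion site, none rose, 7 fell and 12 did not pass (median -0.05), with 28.2% of all rows called. Trio, a guanine nucleotide exchange factor for Rac, fell from 558 ± 19.6 to 459 ± 21.7 CPM (log2 -0.28, edgeR adjusted p = 2.44e-08). Stab2, a phosphatidylserine receptor, and Elmo1, a partner of the Rac activator Dock1, fell by 1.17 and 1.06 on the log2 scale from levels near 4.13 CPM in both genes. Rac1 itself was at 272.5 ± 2.78 and 274 ± 5.27 CPM (edgeR adjusted p = 0.868) and was chosen after its value was seen.

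Of 7 tested further caveola genes 4 rose, 1 fell and 2 did not pass (median 0.09). Cav1, the caveolin of most other cell types, rose from 125 ± 4.99 to 152 ± 2.29 CPM (log2 0.29, edgeR adjusted p = 2.48e-09) while Cav3 fell, so the count ratio of Cav1 to Cav3 went from 1.57 to 2.71 (geometric means of 3 libraries). Its log2 value was 0.69, 0.57 and 0.69 untreated and 1.51, 1.38 and 1.42 with lenvatinib, without overlap. This ratio was chosen after both values were seen and was not tested. It is not corrected for feature length (3444 bases for Cav1, 1780 for Cav3), so only its change can be read, not which gene was more abundant. In TPM, Cav1 lay below Cav3 untreated (121 ± 4.36 and 149 ± 8.13) and above it with lenvatinib (147 ± 3.74 and 104.5 ± 4.83; SD, n = 3). Pacsin3 rose by 0.15 and Cavin2 fell by 0.15 on the log2 scale. Of 7 tested ferlin and membrane repair genes 3 rose and 3 fell (median -0.01): the annexin gene Anxa2 and the traffic gene Ehd1 rose by 0.26 and 0.23, and Trim72, encoding the repair protein MG53, fell by 0.14. Dysf, which encodes the membrane repair ferlin dysferlin, fell from 205 ± 9.96 to 189 ± 4.23 CPM (log2 -0.12, edgeR adjusted p = 0.00245; named after its value was seen).

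Of 11 tested genes of the interleukin 4 and 13 pathway 1 rose, 3 fell and 7 did not pass (median -0.09). This is near the share of all rows called, 28.2%. Il13ra1, which pairs with Il4ra in the receptor of non-blood cells, fell from 38.8 ± 0.741 to 31.6 ± 2.13 CPM (log2 -0.30, edgeR adjusted p = 2.26e-05). Il13ra2, the decoy receptor of interleukin 13, fell from 2.11 ± 0.42 to 0.343 ± 0.226 CPM (log2 -2.70 ± 0.34 SE, edgeR adjusted p = 7.71e-08), on 44 to 68 counts untreated and 3 to 13 with lenvatinib. Irs2, an adaptor of this receptor and of the insulin receptor, rose by 0.26. Irs1, also in this list and more abundant, fell from 147 ± 6.16 to 132 ± 5.61 CPM (log2 -0.16, edgeR adjusted p = 0.000409, named after its value was seen). Il4, Il13 and Il2rg had 0 counts in all 6 libraries, where 3 counts correspond to 0.0927 to 0.123 CPM per library.

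**Figure D4:**
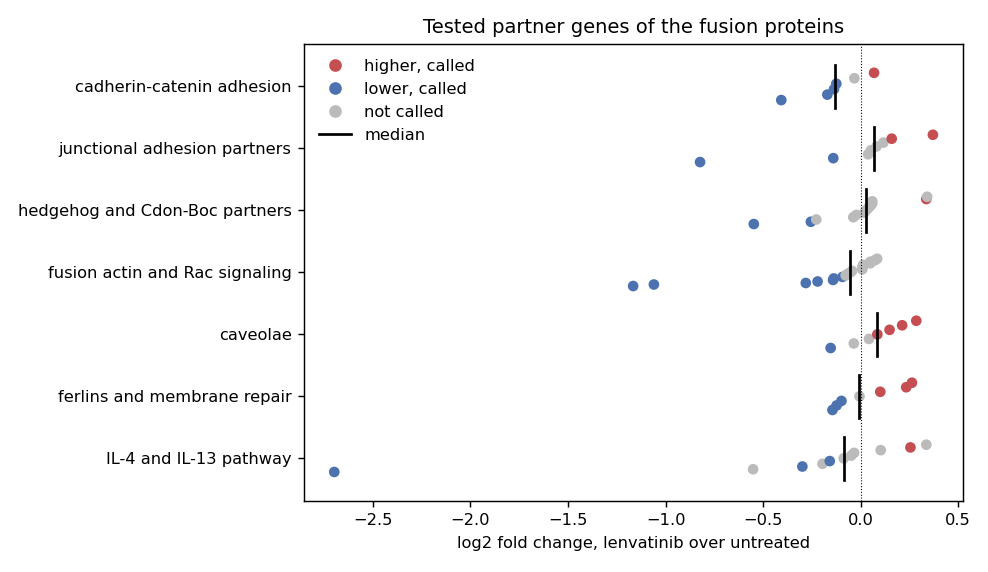
Log2 fold change, lenvatinib over untreated (horizontal axis), of each tested gene in the 7 lists of partner genes; red dots were called higher, blue dots called lower, grey dots not called, and the black bar is the list's median. The medians lie between -0.13 and 0.09, and the far left point is Il13ra2 at -2.70.

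Genes that set or mark the state of the cells were read alongside. Their counts, and those of the cell type markers below, stand beside 28.2% of all rows called (13.3% higher and 14.9% lower). Of 12 tested myogenic factor genes 4 rose and 3 fell: Myog rose by 0.28 on the log2 scale (edgeR adjusted p = 6.51e-12) and Myod1, whose row has a feature length above the span of the gene, by 0.24, while Mef2c fell by 0.43. Of 10 tested myotube markers 4 rose and 3 fell, among them Chrna1 (0.17), Des (-0.19) and Tnnt1 (-0.29). Of 9 tested cell cycle markers 6 rose and none fell, with Mcm2, Pcna and Rrm2 higher by 0.34, 0.22 and 0.27; the summed level of this list was 422 to 474 CPM untreated and 509.9 to 518 CPM with lenvatinib. Its part in the changes of the fusion genes was not tested. Ccna2 had 0 or 1 count in each library although other cell cycle markers were well covered, so counts at or near 0 are not taken as absence of a transcript in this table.

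Some of the fusion genes are also expressed by other cell types. The 8 endothelial markers, which bear on Jam2 and Jam3, summed to 2.16 to 2.63 CPM untreated and 2.18 to 2.62 CPM with lenvatinib, with Tie1 and Emcn at 0 in all libraries and neither of the 2 tested markers called. The 8 macrophage markers, which bear on Il4ra, summed to 7.09 to 7.96 CPM untreated and 6.15 to 6.91 CPM with lenvatinib; of 5 tested, Cd14 fell by 0.54 on the log2 scale and none rose, Adgre1 was at 0 in all libraries and Ptprc at 0 in 5. The 8 fibroblast markers, which bear on Boc and Cdon, summed to 845 to 879 CPM untreated and 921 to 1007 CPM with lenvatinib. Of 6 tested, 3 rose, Mfap5 by 0.96, and 2 fell, Pdpn by 0.26 and Pdgfra by 0.41. The largest share of the sum was Col1a1, which rose from 483 ± 14.3 to 615 ± 45.35 CPM (named after its values were seen). Pdpn, the next largest, fell from 263 ± 3.91 to 220 ± 8.71 CPM. The part of these markers in the rise of Boc and Cdon was not tested. The 6 adipocyte markers summed to 45.9 to 48.4 and 42.0 to 46.9 CPM, with Cebpa lower by 0.70 and Lpl higher by 0.22 (the latter not called without the third lenvatinib library, edgeR adjusted p = 0.147). Of 6 Schwann cell markers 1 fell, Erbb3, a receptor that muscle cells also express, by 0.13, and Sox10 was at 0 in all libraries.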

How the data were processed

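Gene counts from 6 RNA-seq libraries were used as the authors deposited them: whole-number read counts per gene row, not normalized, 1 column per library, matched to samples by name. Hisat2 2.0.1 aligned the reads, per the labels' protocols, and the submitters' processing notes name HTSeq 0.6.1 and mm10. Use of strand in counting: not given in the sources used here. Rows that overlap 4 of the genes held at most 6 counts each over all libraries. Deposited positions differ from GENCODE M21 (GRCm38), so they are printed without a build; the promoter windows have their own.

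Computed here: CPM, TPM, fold changes and tests, with edgeR 4.0.16 in R 4.3.3 (TMM, filterByExpr with a minimum count of 10 and total of 15, glmQLFit robust, glmQLFTest; checked on simulated data), over 14989 rows. Intervals are 95% t intervals of that fit. Log2 CPM used a prior count of 2. Alternatives were DESeq2 1.42.0, limma-voom 3.58.1, other scalings and filters, a stricter threshold, a replicate block and leaving out each library. Named beside the 10 genes are up to 3 genes per list with the smallest p, Myod1, Myog, defining markers, and the 3 rows most like Mymk; others are marked, and 1 gene that the rule picked is not reported here. The genes and lists were chosen with earlier results of these data known.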

Additional observations from a re-analysis of the deposited data

How the results depend on the processing

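Under 14 alternatives the number of fusion genes called stayed at 7 or 8 of 9; where it was 7 (no filter, DESeq2, an adjusted p under 0.01 and the removal of any single library other than the first lenvatinib one), the gene not called was Jam3. Its log2 fold change ranged from 0.15 to 0.20 (adjusted p = 0.0293 to 0.144). Boc (0.55 to 0.59), Cdon, Jam2, Mymk (0.14 to 0.19), Cav3 (-0.55 to -0.46), Il4ra (-0.51 to -0.47) and Myof (-0.18 to -0.12) kept their direction and their call under all 14, and Mymx (-0.09 to -0.02) was called under none (adjusted p = 0.0862 to 0.774). Over all rows the number called ranged from 3049 to 4276 beside 4228. Beyond the fusion genes, Lyz2 and Tek were called only without the first untreated (adjusted p = 0.0415) and the first lenvatinib library (0.0382). Same-numbered libraries share only a number: their deviations from the group means correlated at 0.022, -0.078 and -0.004, and not every library correlated best with its own number. With the replicate number as a block, 8 fusion genes and 4134 rows were called, and the ratio of Mymk to Mymx differed by 0.23 on the log2 scale. The 3 ratios kept their direction under all 8 alternatives, but 3 libraries against 3 allow no exact p under 0.1. Depth limits Boc (270 to 486 counts a library) and Jam3 (488 to 688) most.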
